A study of Homo sapiens with 8 samples.

Results

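Aminoacyl-tRNA synthetases are the enzymes that join each amino acid to its transfer RNA (tRNA), the step that gives the genetic code its meaning. Their genes were picked out of the array annotation by symbol: a letter for the amino acid followed by ARS and 1, 2 or 3, together with EPRS1, FARSA and FARSB. This gave 32 genes of the 17491 measured, each read by a single probe set. By suffix, 14 encode cytosolic enzymes (suffix 1), 15 encode mitochondrial enzymes (suffix 2), and 3 carry another suffix. Those 3 are FARSA and FARSB, the subunits of the cytosolic phenylalanine enzyme, and TARS3, a further threonine enzyme.

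The tissue was lymph node metastases of SkMel147, a human skin melanoma line, grown from subcutaneous tumours in BALB/c nude mice, an athymic strain that lacks mature T cells. At a tumour volume of about 750 mm3, some mice received vehicle and others doxycycline in their drinking water, and nodes were taken 2 days later. Each treatment had 4 arrays. Doxycycline was meant to switch on Omomyc, a dominant-negative form of the MYC dimerization domain, in the tumour cells. The sources used here do not name the promoter driving Omomyc, the age of the mice, or whether the line is a single clone. The whole node was homogenized, so each array holds tumour and host RNA together. In such a mixture fewer cells of a type and less RNA per cell cannot be told apart, and how far the human probes read mouse transcripts was not measured. Doxycycline itself also slows translation in mitochondria, and all 8 samples came from the same line, so effects of drug and transgene cannot be told apart.

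Cells keep separate sets of synthetases for the cytosol and for mitochondria, all encoded in the nucleus. Several cytosolic enzymes sit in the multi-synthetase complex, held together by scaffold proteins such as AIMP1. A stress-activated transcription factor, ATF4, raises many cytosolic synthetases when amino acids run short, through a composite site shared by C/EBP and ATF proteins. MYC drives growth and protein synthesis and binds the E-box CACGTG, a site for which Omomyc competes.

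Both motifs were looked for in RefSeq promoter windows (GRCh38.p14), each 300 bases long and running from 250 bases before the start site to 50 after it. Windows were found for 27 of the 32 genes, with none for LARS1, YARS1, AARS2, VARS2 and TARS3. The composite site was searched as TGATGNAA and, on the other strand, TTNCATCA. It was present for 7 of the 27 genes, against 4.46% of all 27305 genes with a window and 3.62% of all windows. Of the 9 genes with a window on a list of synthetases described as ATF4-induced, 6 held it, as did 1 of the 18 others, YARS2. The 7 sites are shown as the members whose promoter window holds these letters; 3 listed genes with a window did not hold them. Each is on its gene's own strand with the motif in capitals, which in AARS1, CARS1, GARS1, IARS1 and TARS1 runs in the reverse orientation.
AARS1 (chr16:70289676-70289703, minus strand): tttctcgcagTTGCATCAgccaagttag
CARS1 (chr11:3057408-3057435, minus strand): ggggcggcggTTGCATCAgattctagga
GARS1 (chr7:30594835-30594862, plus strand): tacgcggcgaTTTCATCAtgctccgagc
IARS1 (chr9:92293693-92293720, minus strand): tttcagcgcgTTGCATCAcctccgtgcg
NARS1 (chr18:57621805-57621832, minus strand): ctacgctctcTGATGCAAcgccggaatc
TARS1 (chr5:33440957-33440984, plus strand): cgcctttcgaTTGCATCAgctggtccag
YARS2 (chr12:32756077-32756104, minus strand): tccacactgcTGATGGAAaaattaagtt

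The E-box CACGTG, which reads the same on both strands and overlaps no composite site here, was present for 4 of the 27 genes, against 8.77% of all genes with a window and 7.26% of all windows. Those 4 are shown as the members whose promoter window holds the letters that MYC and Omomyc bind. The motif began 186 bases before the start site in IARS1, 15 before it in EARS2, 11 before it in MARS2 and 3 before it in CARS2. A match is a run of letters and not a measured binding site.
CARS2 (chr13:110706503-110706528, minus strand): ctgggatgcaCACGTGcttcgctaac
EARS2 (chr16:23557350-23557375, minus strand): gggagaagccCACGTGtgctattcca
IARS1 (chr9:92293868-92293893, minus strand): gttcgttttcCACGTGgaggcgcaaa
MARS2 (chr2:197705348-197705373, plus strand): gcgcctctcaCACGTGctgtcagaac

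Values are log2 expression, so a difference of 1 is a 2-fold change, and array medians lay between 5.07 and 5.12. Vehicle replicate 1 stood apart from the rest: its correlation across genes with the other arrays averaged 0.941, whereas the other 7 correlated with each other at 0.972 to 0.983. Results that rest on it are therefore given with and without it. Means lay above the array medians for 5 of 7 measured melanoma markers and 4 of 9 measured lymphocyte markers. The same held for 3 of 6 lymph node stroma, 4 of 7 adipocyte and 7 of 7 skeletal muscle markers. Over all genes it held for 8713 of 17491, so these counts alone do not identify the tissue. The summed log2 values of the melanoma markers ran from 34.41 to 36.25 with vehicle and from 36.33 to 36.77 with doxycycline. For the 7 adipocyte markers the sums ran from 36.93 to 39.45 and from 39.72 to 41.47. Neither sum overlapped between the groups. Vehicle replicate 1 gave both the 34.41 and the 36.93, and in the other 7 arrays these sums began at 36.02 and 37.59. Taken singly, 0 of 7 melanoma genes and 3 of 7 adipocyte genes had groups that did not overlap, against 2.62% of all genes. With all arrays TYRP1 (-0.07) and PLIN1 (-0.13) differed downward, while the other 6 genes of each list lay above 0. Only 5 genes of each list lay above 0 without vehicle replicate 1, with PMEL (-0.12) and CFD (-0.08) then also below it. The MLANA difference went from 0.43 to 0.13. How often sums of other gene lists part in this way was not tested. Sums of the 9 lymphocyte markers (44.01 to 47.05 and 45.72 to 46.43), the 6 lymph node stroma markers (32.26 to 34.02 and 33.29 to 34.09) and the 7 skeletal muscle markers (42.01 to 46.57 and 43.29 to 50.3) did overlap. For all 5 lists the lowest sum was in vehicle replicate 1, and the part of these lists in the results below was not tested.

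The comparison of doxycycline with vehicle asked how induced Omomyc affects the metastases, and it is read here for the charging enzymes. None of the 32 genes passed (limma, Benjamini-Hochberg adjusted p under 0.05 over all genes), against 0% of the 17491 genes. At an unadjusted p under 0.05 there were 0 of the 32, against 3.8% of all genes, and groups that did not overlap were found for 0 of the 32, against 2.62%. Without vehicle replicate 1, 0 of the 32 passed (0% of all genes) and 0 had an unadjusted p under 0.05, against 4.91% of all genes. Differences, doxycycline minus vehicle, ran from -0.30 for IARS2 to 0.24 for SARS1. A difference past 1.5-fold was seen for 0 of the 32, against 0.863% of all genes. All 32 had a 95% confidence interval that stayed within a 2-fold change either way, as did 97.8% of all genes, and 27 stayed within 1.5-fold, as did 81.5%. The lowest bound was -0.89, for IARS2, and the highest 0.60, for SARS1. The intervals give the changes compatible with 4 arrays a group and are not a limit of detection. Changes beyond them could also fail to pass over all genes. TNNT3, a skeletal muscle marker, differed by 1.01 and did not pass (limma adjusted p = 0.987).

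Split by compartment, 9 of the 14 cytosolic genes lay below 0 and 5 above it, with a median difference of -0.03. Among the 15 mitochondrial genes, 7 lay below 0 and 8 above, with a median of 0.0021. Over all genes tested the median was 0.02, and 44.5% lay below 0. Without vehicle replicate 1 the cytosolic median turned to 0.08, with 3 of 14 genes below 0 against 49.2% of all genes, while the mitochondrial median was 0.00052 with 7 of 15 below 0. The cytosolic minus the mitochondrial median was thus -0.03 with that array and 0.08 without it. The share of members below 0 was a description of the set and was not tested.

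**Figure D1:**
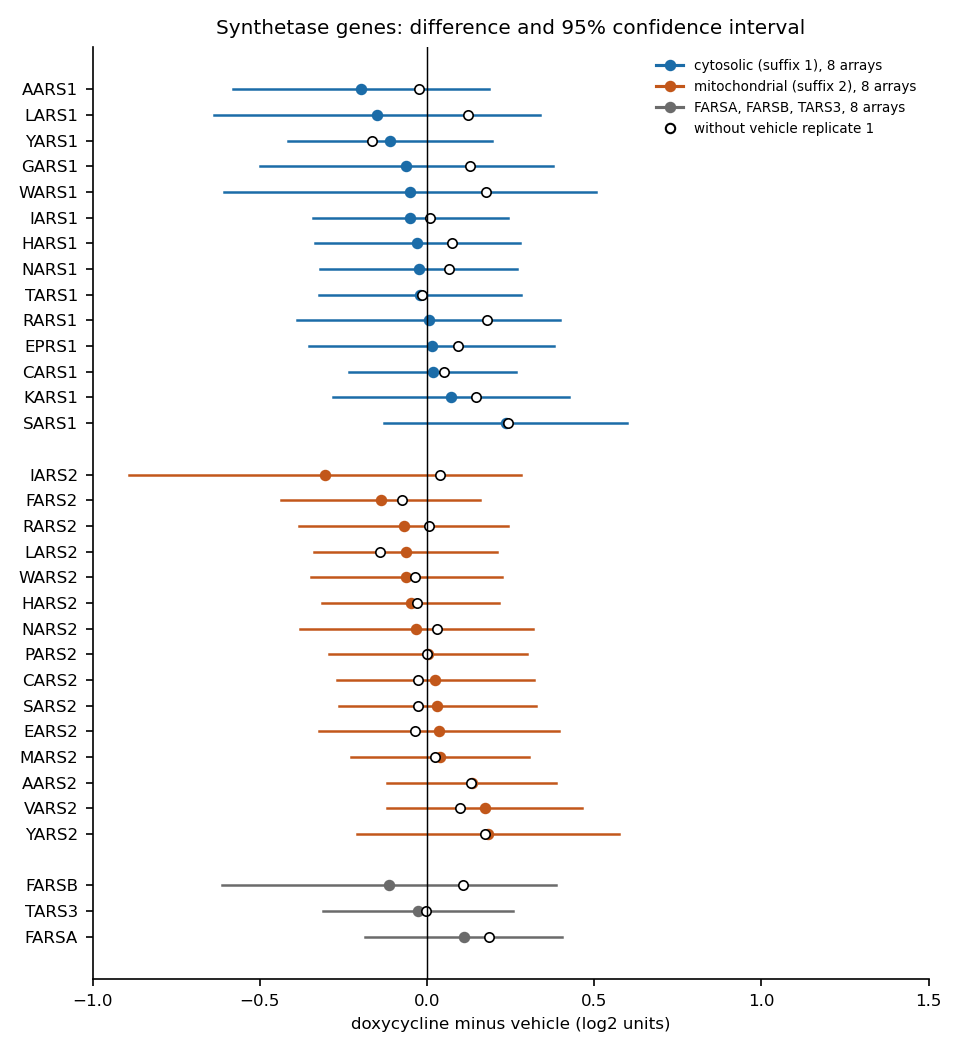
Difference between doxycycline and vehicle in log2 units (x axis) for each of the 32 synthetase genes (y axis), as filled points with 95% confidence intervals from all 8 arrays and as open points without vehicle replicate 1. Every interval crosses 0, and IARS2 has the widest, from -0.89 to 0.28.

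The array-by-array means show where the cytosolic set varied. Each gene was first centred on its own 8-array mean. The cytosolic mean was then 0.32, -0.17, -0.04 and -0.06 in vehicle replicates 1 to 4 and -0.10, -0.04, 0.06 and 0.02 in doxycycline replicates 1 to 4. Vehicle replicate 1 was the highest array and vehicle replicate 2 the lowest, with all 4 doxycycline arrays between them. The mitochondrial mean stayed between -0.02 and 0.05 with vehicle and between -0.05 and 0.08 with doxycycline, so the groups overlapped there too. Over the 4 vehicle arrays the cytosolic mean was 0.01 ± 0.21 (SD), and over the 4 doxycycline arrays it was -0.01 ± 0.07 (SD). For the mitochondrial genes the same means were 0.0033 ± 0.03 (SD) and -0.0033 ± 0.06 (SD). The within-array gap between cytosolic and mitochondrial means was 0.27, -0.15, -0.04 and -0.04 with vehicle and -0.05, -0.04, 0.11 and -0.06 with doxycycline.

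**Figure D2:**
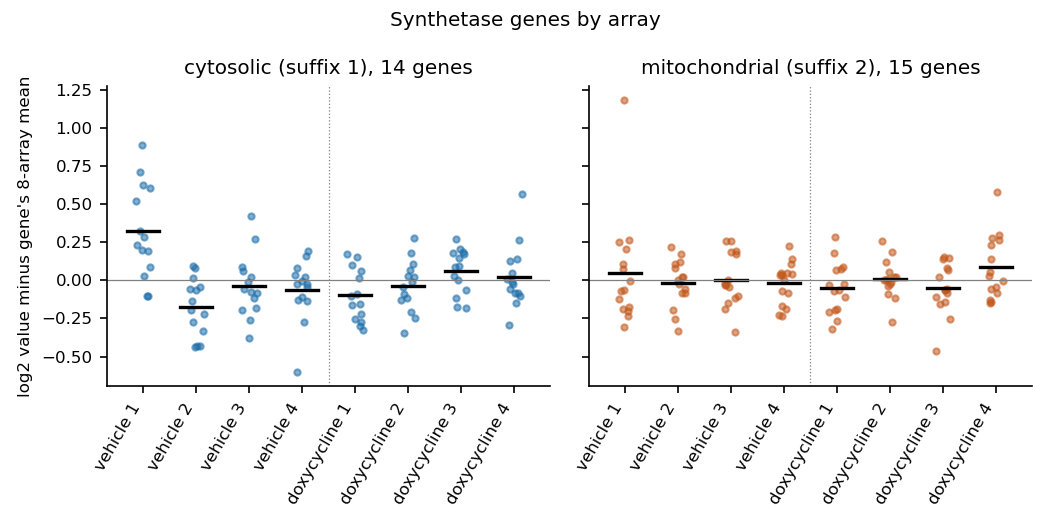
Log2 value minus the gene's own 8-array mean (y axis) on each array (x axis) for the 14 cytosolic and the 15 mitochondrial synthetase genes, 1 point per gene with the set's mean as a bar. The cytosolic mean of 0.32 in vehicle replicate 1 stands above the other 7 arrays, whereas the mitochondrial means lie between -0.05 and 0.08.

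Among the enzymes of the multi-synthetase complex, 5 of 8 listed were measured: EPRS1, IARS1, KARS1, LARS1 and RARS1. None passed the test, 2 lay below 0 and 3 above, and the median difference was 0.0049. Without vehicle replicate 1 all 5 lay above 0, with a median of 0.12, and none passed. LARS1, which charges tRNA with leucine and also reports leucine to the mTORC1 growth pathway, read 4.23, 3.07, 3.16 and 3.21 in vehicle replicates 1 to 4 and 3.36, 3.10, 3.23 and 3.39 in the doxycycline arrays. Vehicle replicate 1 alone lay outside the span of the other 7 arrays. The LARS1 difference was -0.15 (95% interval -0.64 to 0.34) with all arrays and 0.12 without that one. RARS1, the arginine enzyme, had the same high array, at 3.89 against 3.08 to 3.55 in the other 7, and its difference went from 0.0049 to 0.18.
EPRS1, which joins the glutamate and proline activities in a single protein, read 4.08, 3.79, 3.47 and 4.04 with vehicle and 3.63, 4.13, 3.67 and 3.99 with doxycycline. Its groups overlapped, with a difference of 0.01 (95% interval -0.35 to 0.38). AIMP1, the scaffold, was at 4.95, 4.49, 4.57 and 4.44 with vehicle and 4.17, 4.59, 4.48 and 4.71 with doxycycline. That difference was -0.12 (95% interval -0.46 to 0.22), and -0.0092 without vehicle replicate 1.

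KARS1 and GARS1 each make both the cytosolic and the mitochondrial form of the lysine and glycine enzymes. KARS1 read 8.58, 7.96, 8.41 and 8.47 with vehicle and 8.30, 8.18, 8.56 and 8.65 with doxycycline, a difference of 0.07 (95% interval -0.28 to 0.43). Its lowest array was vehicle replicate 2 and its highest doxycycline replicate 4. GARS1 read 5.83, 4.79, 5.29 and 5.12 with vehicle and 4.97, 5.11, 5.50 and 5.20 with doxycycline. Here both the highest and the lowest array belonged to the vehicle group. The GARS1 difference was -0.06 (95% interval -0.50 to 0.38), and 0.13 without vehicle replicate 1.

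Of the 13 synthetases listed as ATF4-induced, 11 were measured, 8 lay below 0 and 3 above, and the median difference was -0.05 (0.07 without vehicle replicate 1). None passed. AARS1, the alanine enzyme, read 5.82, 5.29, 5.14 and 4.92 with vehicle and 4.92, 5.15, 5.13 and 5.18 with doxycycline. It had the lowest difference of the cytosolic set, -0.20 (95% interval -0.58 to 0.18), which was -0.02 without vehicle replicate 1. WARS1, the tryptophan enzyme, which interferon gamma also induces, was among the most variable members, at 4.88, 3.74, 4.59 and 3.57 with vehicle. Its doxycycline values of 3.87, 4.16, 4.26 and 4.30 lay inside the vehicle range. The WARS1 difference was -0.05 (95% interval -0.61 to 0.51), and 0.18 without vehicle replicate 1.
SARS1, the serine enzyme, had the highest difference of all 32 genes, and it did not rest on vehicle replicate 1: 0.24 (95% interval -0.13 to 0.60) with that array and 0.24 without it. Its values were 7.43, 7.20, 7.52 and 7.51 with vehicle and 7.43, 7.71, 7.36 and 8.10 with doxycycline. Doxycycline replicates 2 and 4 were above every vehicle array, while replicates 1 and 3 lay within the vehicle range. Without doxycycline replicate 4, the difference was smaller, 0.086. YARS1, the tyrosine enzyme, read 4.63, 4.75, 5.00 and 4.77 with vehicle and 4.41, 4.64, 4.92 and 4.74 with doxycycline, a difference of -0.11 (95% interval -0.42 to 0.19). The YARS1 difference was -0.023 without doxycycline replicate 1, the lowest array, -0.04 without vehicle replicate 3, the highest, and -0.19 without doxycycline replicate 3. CARS1, the cysteine enzyme, had the narrowest spread of the set, from 5.89 to 6.11 over all 8 arrays, and a difference of 0.02.

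**Figure D3:**
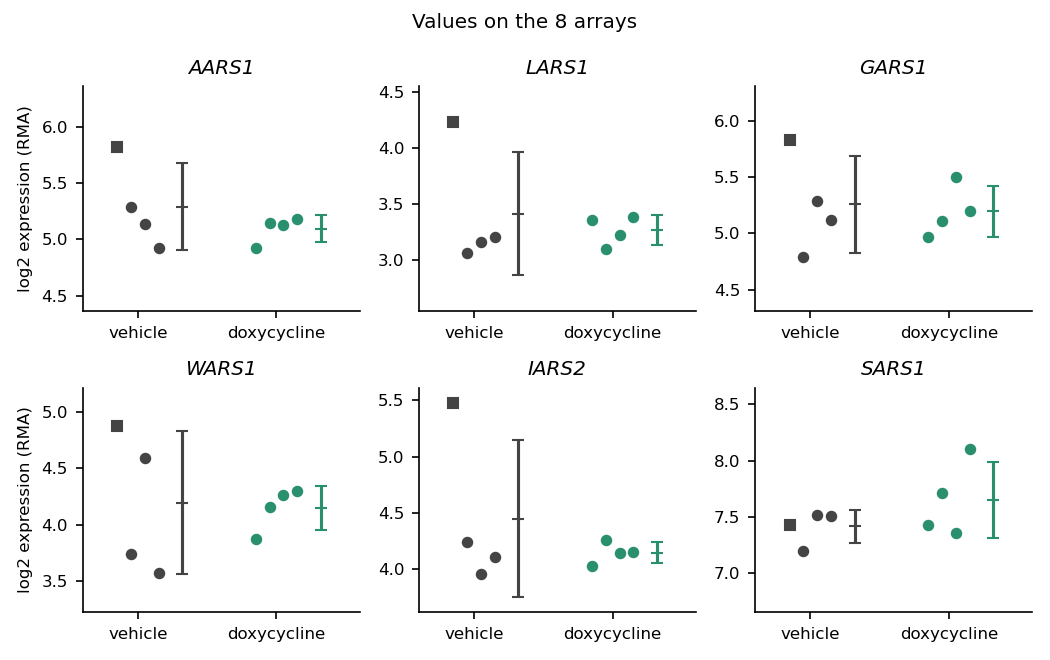
Log2 expression (y axis, a range of 2 units in every panel) of 6 synthetase genes on the 4 vehicle and 4 doxycycline arrays, replicates 1 to 4 from left to right, with the group mean ± SD beside the points and vehicle replicate 1 as a square. In AARS1, LARS1, GARS1, WARS1 and IARS2 the square is the highest point; in SARS1 doxycycline replicate 4 is, at 8.10.

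The genes of the composite site did not share a direction. Beside AARS1, CARS1 and GARS1, the differences were -0.05 for IARS1 and -0.03 for NARS1, the asparagine enzyme. They were -0.02 for TARS1, the threonine enzyme, and 0.18 for YARS2. Without vehicle replicate 1, CARS1 was at 0.05, IARS1 at 0.0092, NARS1 at 0.067, TARS1 at -0.015 and YARS2 at 0.17. ATF4 itself read 6.45, 5.90, 5.65 and 5.90 with vehicle and 5.38, 5.73, 5.56 and 5.67 with doxycycline. It did not pass (difference -0.39, 95% interval -0.75 to -0.03, limma adjusted p = 0.987), and the groups overlapped. Vehicle replicate 1 was its highest array, and without it the ATF4 difference was -0.23 (limma unadjusted p = 0.111). Of 14 measured ATF4 output genes, ATF4 included, 0 passed, 7 lay on each side of 0, and the median was -0.02 (-0.05 without vehicle replicate 1). DDIT4, an inhibitor of mTORC1, differed by -0.33 ± 0.16 (SE) and SESN2, a leucine sensor, by 0.27 ± 0.14 (SE). Interferon gamma output genes, listed because of WARS1, gave 0 of 9 measured that passed, 4 above 0 and 5 below, with a median of -0.04. The E-box genes had differences of -0.05 (IARS1), 0.03 (CARS2), 0.04 (EARS2) and 0.04 (MARS2). Without vehicle replicate 1 these were 0.0092, -0.028, -0.036 and 0.024, so the sign turned for all but MARS2.

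In the mitochondrial set, IARS2, the isoleucine enzyme, had the widest spread. It read 5.48, 4.24, 3.96 and 4.11 with vehicle and 4.03, 4.26, 4.14 and 4.15 with doxycycline, so that vehicle replicate 1 was far above 7 arrays that lay between 3.96 and 4.26. The difference went from -0.30 to 0.04 without it. FARS2, the phenylalanine enzyme, read 4.56, 4.39, 4.48 and 4.07 with vehicle and 4.12, 4.19, 4.39 and 4.25 with doxycycline. Its groups overlapped, with a difference of -0.14 (95% interval -0.44 to 0.16). Vehicle replicate 1 was the highest FARS2 array, and the difference was -0.075 without it and -0.24 without vehicle replicate 4, the lowest. LARS2, the leucine enzyme, was at 4.41, 4.63, 4.87 and 4.66 with vehicle and 4.59, 4.63, 4.53 and 4.57 with doxycycline, and here vehicle replicate 1 was the lowest array. RARS2, the arginine enzyme, gave 3.95, 3.60, 3.54 and 3.79 with vehicle and 3.37, 3.66, 3.84 and 3.74 with doxycycline. Their differences were -0.06 and -0.07, and the groups overlapped in both. Without vehicle replicate 1 they were -0.14 for LARS2 and 0.0067 for RARS2.
On the other side of 0, YARS2, the tyrosine enzyme, read 2.84, 2.63, 3.22 and 2.79 with vehicle and 2.85, 2.97, 2.85 and 3.54 with doxycycline. Its difference of 0.18 (95% interval -0.21 to 0.57) was 0.021 without doxycycline replicate 4, the highest array. VARS2, the valine enzyme, was at 4.63, 4.94, 4.75 and 5.08 with vehicle and 4.91, 4.94, 5.08 and 5.17 with doxycycline. Vehicle replicates 1 and 3 were below all doxycycline arrays and the other two were not, with a difference of 0.17 (95% interval -0.12 to 0.46) that was 0.099 without vehicle replicate 1. AARS2, the alanine enzyme, gave 4.30, 4.18, 4.34 and 4.41 with vehicle and 4.31, 4.49, 4.44 and 4.51 with doxycycline. Its difference of 0.13 (95% interval -0.12 to 0.39) was 0.13 without vehicle replicate 1 as well. MARS2, the methionine enzyme, read 4.59, 4.67, 4.62 and 4.65 with vehicle and 4.58, 4.91, 4.67 and 4.52 with doxycycline, so that the vehicle values lay inside the doxycycline range. The genes not described singly had differences between -0.06 and 0.04 in the mitochondrial set.

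FARSA and FARSB form a single enzyme, but vehicle replicate 1 was the highest array only for FARSB. FARSB read 5.98, 5.17, 5.34 and 4.77 with vehicle and 5.31, 5.55, 4.99 and 4.94 with doxycycline. FARSA, the catalytic subunit, was at 7.54, 7.13, 7.44 and 7.18 with vehicle and 7.38, 7.62, 7.32 and 7.42 with doxycycline, and its highest array was doxycycline replicate 2. The differences were -0.12 (95% interval -0.61 to 0.38) for FARSB and 0.11 (95% interval -0.18 to 0.40) for FARSA. Without vehicle replicate 1 both were above 0, at 0.11 and 0.18.

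HARS1 and HARS2, the cytosolic and mitochondrial histidine enzymes, are transcribed away from each other. Their RefSeq windows overlap by 184 bases, and 84 bases lie between the start sites. That stretch is shown because it lies upstream of an enzyme for each compartment: chr5:140691371-140691454, plus strand, with HARS2 to the right and HARS1 to the left.
Between HARS1 and HARS2: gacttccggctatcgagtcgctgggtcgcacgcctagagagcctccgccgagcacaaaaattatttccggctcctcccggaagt
HARS1 read 7.12, 6.60, 6.72 and 6.79 with vehicle and 6.63, 6.86, 6.94 and 6.69 with doxycycline. HARS2 read 4.90, 4.80, 4.83 and 4.87 with vehicle and 4.62, 5.01, 4.76 and 4.82 with doxycycline. In vehicle replicate 1 HARS1 exceeded the 7-array mean of the rest by 0.37 and HARS2 by 0.09, and HARS2 had its highest value in doxycycline replicate 2. The doxycycline differences were -0.03 for HARS1 and -0.05 for HARS2. Without vehicle replicate 1 they were 0.075 and -0.031.

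Enzymes for the same amino acid could be set side by side for 10 pairs. The cytosolic difference lay below the mitochondrial one in 4 of the 10 pairs with all arrays and in 3 without vehicle replicate 1. With all arrays the gap was widest for alanine, -0.20 for AARS1 against 0.13 for AARS2. Tyrosine followed, with -0.11 for YARS1 against 0.18 for YARS2. Isoleucine had the widest gap the other way, -0.05 for IARS1 against -0.30 for IARS2, and that gap turned to 0.0092 against 0.04 without vehicle replicate 1.

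Vehicle replicate 1 was then described on its own, as a single array with no replicate and no test. It was the highest of the 8 arrays for 13 of the 32 genes, against 15.2% of all genes. That count held 9 of the 14 cytosolic genes, 3 of the 15 mitochondrial genes and FARSB. It was the lowest array for 2 of the 32, LARS2 and VARS2, against 28.8% of all genes. More than 1.5-fold above the mean of the other 7 were 7 of the 32 genes, against 7.55% of all genes: IARS2 (by 1.35), LARS1 (1.02), FARSB (0.83), WARS1 (0.81), AARS1 (0.71), GARS1 (0.69) and RARS1 (0.60). None lay more than 1.5-fold below it, against 4.2% of all genes. The median excess was 0.30 over the cytosolic genes, -0.07 over the mitochondrial genes and -0.11 over all genes tested. Within amino acid pairs the cytosolic excess was the larger in 9 of 10, the exception being isoleucine, with 0.23 for IARS1 and 1.35 for IARS2. AIMP1 and ATF4 were also high in this array, by 0.46 and 0.76, and all 5 marker sums were at their lowest there; their part in the excess was not tested.

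**Figure D4:**
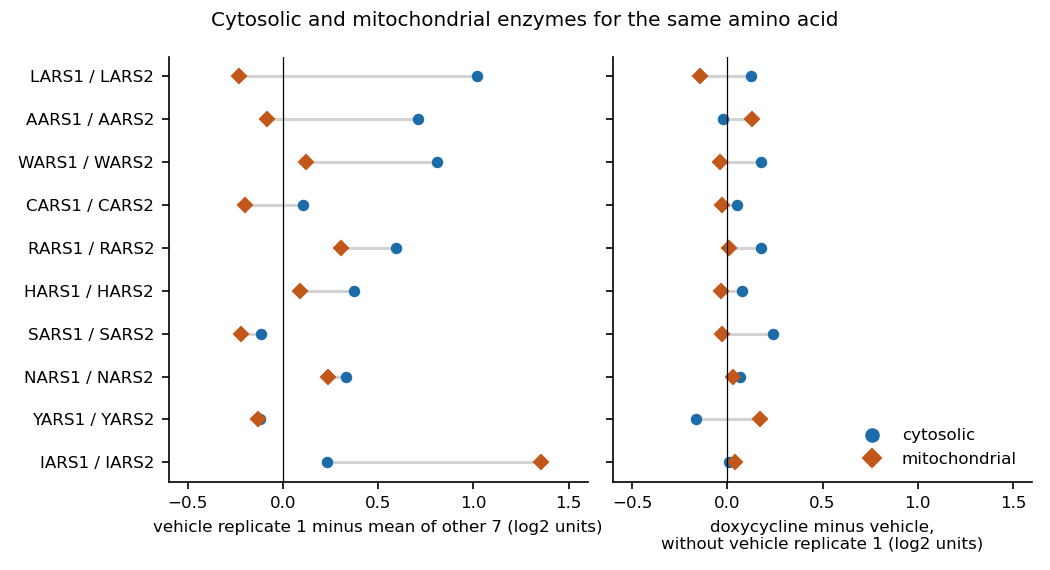
Cytosolic (circles) and mitochondrial (diamonds) enzymes for 10 amino acids. The left panel shows the value in vehicle replicate 1 minus the mean of the other 7 arrays, the right panel doxycycline minus vehicle without that array, both in log2 units on the same x axis range. On the left the circle lies to the right of the diamond in 9 of 10 pairs; on the right all points lie between -0.16 and 0.24.

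Other steps of tRNA charging gave no call either. Among 9 measured partners of the synthetases, 0 passed, 6 lay above 0 and 3 below, with a median of 0.02 (0.07 without vehicle replicate 1). GATC, a subunit of the mitochondrial amidotransferase that makes glutamine-charged tRNA, read 6.05, 5.92, 6.46 and 6.16 with vehicle and 5.67, 5.82, 5.60 and 5.71 with doxycycline. Its groups did not overlap, which held for 1 of the 9 partners, against 2.62% of all genes. The GATC difference of -0.45 ± 0.14 (SE) did not pass over all genes (limma adjusted p = 0.987). It was -0.48 without vehicle replicate 1. The other 2 subunits differed the other way, QRSL1 by 0.24 ± 0.18 (SE) and GATB by 0.18 ± 0.17 (SE). Those 2 differences were 0.17 and 0.12 without vehicle replicate 1, and the groups overlapped in both genes. Of 13 genes of mitochondrial tRNA maturation, 0 passed, 7 lay above 0 and 6 below, and the median was 0.02. MTO1, a tRNA-modifying enzyme, differed by 0.20 ± 0.13 (SE) and ELAC2, which trims tRNA ends, by -0.21 ± 0.19 (SE). Without vehicle replicate 1 these differences were 0.12 and -0.03.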

How the data were processed

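Total RNA from 8 nodes was hybridized to 8 one-colour Affymetrix arrays. The deposited log2 values were made with RMA, per the submitters' processing notes; no source used here names its version or a build, and scanner data were not used, so signal over background was not assessed. Of 18565 probe sets, 17509 had a single symbol, 0 several and 1056 none; the highest-mean probe set was kept for each of 17491 genes, and 0 of the 32 members had more than 1. Differences were fitted with limma 3.58.1 (lmFit, eBayes) in R 4.3.3 and the R package data.table (version 1.17.8), with no covariates, Benjamini-Hochberg adjustment over all genes, threshold 0.05, two-sided. The fit was tested on simulated data. The number of arrays limits the precision, and the p-values measure the spread between samples that the labels call biological replicas. The titles number the replicas and do not name a mouse for each.

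Members and gene lists were chosen with earlier results of these data known. Values are given in full for members with unadjusted p under 0.05 or groups that do not overlap, the 4 largest increases and decreases per compartment, the 4 that move most without the most divergent array, and AIMP1, plus up to 2 genes per direction from other lists. RARS1, HARS1, HARS2, FARSA, GATB, the E-box and composite-site genes and the paired enzymes were added after their values were seen. Alternatives were the replicate block, median centring, quantile normalization, removal of the dimmest 50% of genes, mean of probe sets, another variance model and each array left out. Motifs were searched in Python 3.11.15 with pandas 2.3.3, and plots drawn with matplotlib 3.10.9.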

Additional observations from a re-analysis of the deposited data

Results flagged for a closer look

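Within groups of 4 arrays, an array was singled out when its gap to the nearest other exceeded Dixon's 95% critical value as a share of the group's range, which chance gives in about 1 in 20 groups. Of 70 groups examined, 2 met this. LARS1 was at 4.23 in vehicle replicate 1, against 3.07 to 3.21 in the other 3 vehicle arrays. The mean of the cytosolic genes minus that of the mitochondrial genes was 0.11 in doxycycline replicate 3, against -0.06 to -0.04 in the other 3 doxycycline arrays.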

How the results depend on the processing

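No setting called any of the 32 genes or any gene in all: genes called numbered 0 in every fit, with 0 synthetases at an unadjusted p under 0.05 (limma). At that level, fits over all genes gave 528 to 998 genes, and the fit without the dimmest 50% of genes gave 328. With single arrays left out, the cytosolic median ran from -0.084 to 0.0843, the mitochondrial median from -0.0548 to 0.0377 and their gap from -0.108 to 0.0838. The lowest mitochondrial median, -0.0548, came without doxycycline replicate 4. Other settings kept the cytosolic median and the gap below 0. The mitochondrial median turned below 0 with array medians centred (-0.00809) and under quantile normalization (-0.0092). Adding FARSA, FARSB and TARS3 to the cytosolic set gave a median of -0.0273 and leaving out GARS1 and KARS1 -0.027, both choices made after seeing the data. Differences near 0 changed sign under centring for RARS1 (-0.0052) and PARS2 (-0.0081), and under quantile normalization for RARS1 (-0.012), PARS2 (-0.0092) and EPRS1 (-0.00095); the cause was not tested. For 23 of the 32 genes the sign changed in at least 1 fit. Leaving out single arrays gave differences of -0.023 to 0.05 for CARS1, -0.11 to 0.093 for EPRS1, -0.22 to 0.13 for GARS1, -0.099 to 0.075 for HARS1, -0.12 to 0.0092 for IARS1 and -0.06 to 0.15 for KARS1. They were -0.27 to 0.12 for LARS1, -0.096 to 0.067 for NARS1, -0.081 to 0.18 for RARS1, -0.091 to 0.091 for TARS1, -0.26 to 0.18 for WARS1 and -0.068 to 0.095 for CARS2. Further ranges were -0.054 to 0.13 for EARS2, -0.12 to 0.013 for HARS2, -0.47 to 0.04 for IARS2, -0.14 to 0.013 for LARS2, -0.04 to 0.088 for MARS2 and -0.13 to 0.12 for NARS2. The rest were -0.092 to 0.087 for PARS2, -0.13 to 0.025 for RARS2, -0.041 to 0.1 for SARS2, -0.3 to 0.11 for FARSB and -0.086 to 0.042 for TARS3. The other 9 kept their sign with single arrays left out: -0.32 to -0.023 for AARS1, -0.19 to -0.023 for YARS1, -0.24 to -0.075 for FARS2, -0.13 to -0.00045 for WARS2, 0.086 to 0.33 for SARS1, 0.091 to 0.18 for AARS2, 0.099 to 0.25 for VARS2, 0.021 to 0.3 for YARS2 and 0.046 to 0.18 for FARSA.

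Same-numbered arrays correlated at -0.05, 0.15, 0.09 and 0.0029 in their deviations, and 4 of 8 arrays matched their own number best. With so few arrays this cannot decide whether the replicate numbers pair them. With the replicate block 0 genes were called, 734 had an unadjusted p under 0.05 in place of 665, and the medians stayed at -0.027 and 0.00205 (gap -0.029). Depth of signal over background was not measured, so low values may hold little signal. Low 8-array means included those of TARS3 (2.80), YARS2 (2.96), NARS1 (3.11), LARS1 (3.34) and RARS1 (3.37). Means lay above the array medians for 14 of the 32 members and for 1 of the 5 measured complex enzymes.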
